A study of Mus musculus with 9 samples.

Results

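The transporters that carry bile acids and other organic anions through hepatocytes were compared between mouse hepatocellular carcinomas and normal mouse liver. The set held 10 genes, chosen by name, of the 18193 genes that the arrays measured, and 16 of the 34945 probe sets that name 1 gene. They were grouped by the step they serve: 3 uptake carriers (Slc10a1, Slco1a1 and Slco1b2), 3 canalicular exporters (Abcb11, Abcb4 and Abcc2) and 4 genes of basolateral export (Abcc3, Abcc4, Slc51a and Slc51b). Where a gene had several probe sets, its brightest on average across the 9 arrays served as its main probe set, and every probe set is given.

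The 5 tumours are called triple knockout hepatocellular carcinomas (TKO HCC) in the titles, while the listed genotype is Rb deleted on both copies, p130 deleted on both copies and p107 +/-, with 1 intact copy. The mice had received Ad-Cre, an adenovirus that carries Cre recombinase, given through the spleen and followed by 4 months until dissection. The 4 livers set against them came from adult wild-type mice without tumours, so the groups differed at once in genotype, in exposure to virus and in tumour state. RNA was amplified in 2 rounds and read on 9 Affymetrix Mouse Genome 430 2.0 arrays, a sample on each. Ages in days or weeks, the cells that had recombined and the number of animals behind each group are not analysed here, and each p-value reflects only the spread among these samples, which may be technical.

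A hepatocyte takes bile acids and drugs from portal blood across its basolateral (sinusoidal) membrane and pumps them across its apical (canalicular) membrane into bile. Uptake depends on the sodium-coupled carrier NTCP (Slc10a1) and on organic anion transporting polypeptides (the Slco genes), and canalicular export on ATP-driven pumps. When bile flow is blocked, other exporters, among them MRP3, MRP4 and the paired carrier OSTα/OSTβ, can return bile acids to the blood, and the bile acid receptor FXR (Nr1h4) is a known regulator of several of these genes.

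Of the 10 genes, 3 fell (Slc10a1, Slco1b2 and Abcc2), 1 rose (Slc51b) and 6 did not pass an adjusted p of 0.05 in limma's test over all genes. Across all genes, 33.5% passed, 17.4% lower and 16.1% higher in the tumours, so 4 of 10 is near the background share. The tumour and liver values did not overlap for 5 of the 10 genes, with tumours lower for 4 and higher for 1, where 29.8% of all genes did not overlap, 15.9% with tumours lower and 14.0% with tumours higher. The median log2 difference, tumours minus livers, was -1.87 over the uptake genes, -0.96 over the canalicular genes and 0.21 over the basolateral genes, against -0.08 over all genes. The uptake median was the value of Slco1a1, which did not pass. It was -1.62 without liver 4 and -2.50 without liver 3. Tumour 3 weighed on the canalicular and basolateral medians: without it the canalicular median was -0.49 and the basolateral median -0.16. These lists of 3 or 4 genes are described by count and median only, and differences between genes were not tested.

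The arrays themselves were comparable in level, with a median over all probe sets of 6.22 to 6.27 on every array. Values are log2 expression values, and TrpnX, a control without a mouse target, read 3.69 to 4.36. As a gauge of RNA length, signal at the 3' end of the Actb control over that at its 5' end was compared, and its log2 ratio lay between 0.53 and 0.72 in tumours, against 0.91 and 1.00 as the ends of the range in livers. The same ratio for the Gapdh control went the other way and overlapped, at -0.24 to -0.18 in tumours and -0.32 to -0.21 in livers. The Actb ratio separated the groups completely, and with it as a covariate none of the 10 transporters passed, Slco1b2 standing at -0.19 (SE 2.93). Its part in any difference described here cannot be told apart from that of the tumour state. In RNA from whole tissue, fewer cells of a type and less RNA per cell cannot be told apart either.

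Other scalings moved all genes together. The median difference of all genes was -0.26 with arrays centred on their 75th percentile, 0.01 with arrays centred on the median level of 14 housekeeping genes and -0.58 with arrays centred on the mean log2 level of those genes, which was higher in tumours by 0.49. Slc10a1, Slco1b2 and Abcc2 stayed lower and Slc51b higher, each past the threshold, under all 3. On the mean level of housekeeping genes the basolateral median turned to -0.28. Over all 18193 genes, lower and higher calls numbered 3165 and 2926 as deposited and 8040 and 2306 on the 75th percentile. They numbered 944 and 2271 on the median level of housekeeping genes and 12272 and 1329 on their mean level. Counts of higher and lower genes in the longer lists described further on also shifted with the scaling. They are given for each, to be read beside these counts of all genes.

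**Figure D1:**
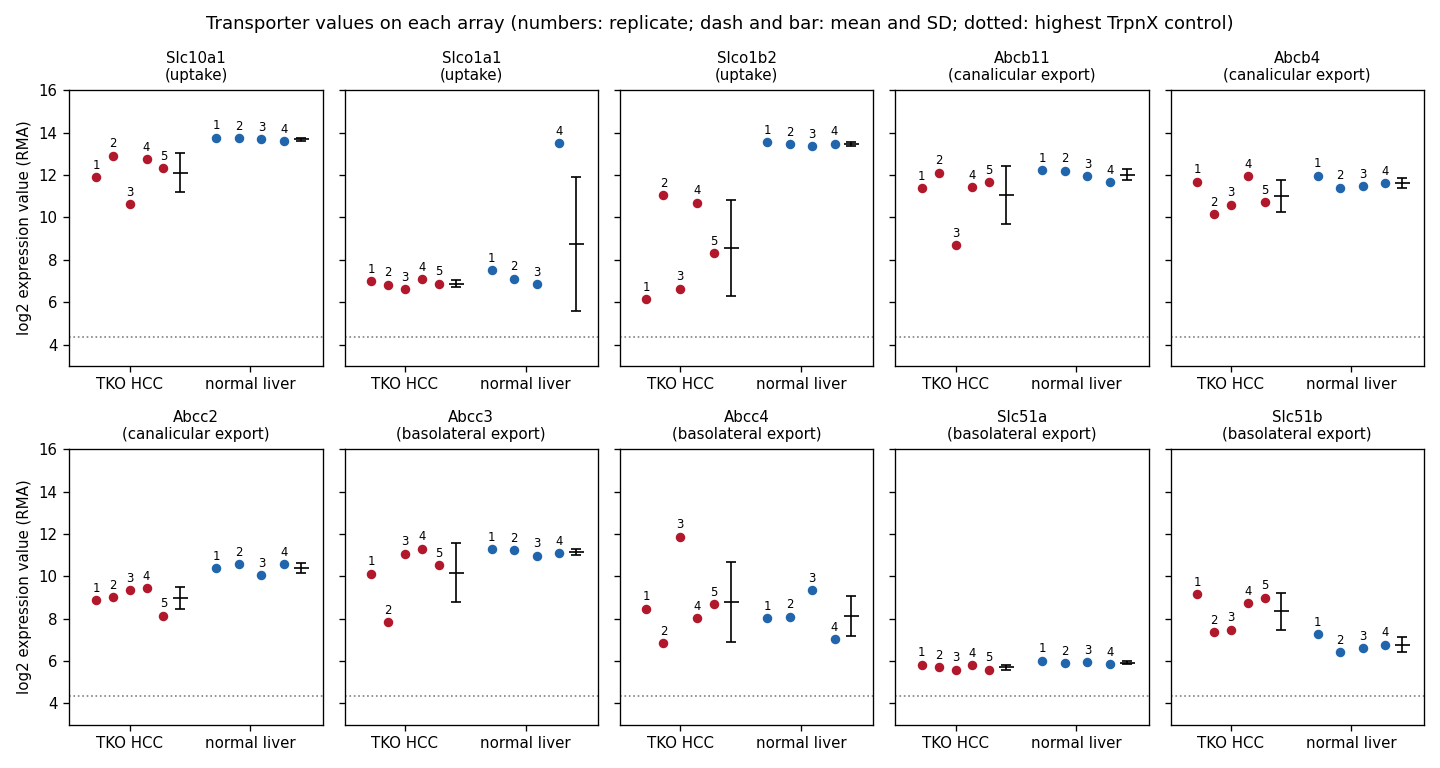
Log2 expression value (y axis) of the main probe set of each transporter on each array, with the 5 TKO HCC arrays left of the 4 normal livers, replicate numbers at the points, the mean and SD as dash and bar, and the highest TrpnX control value as a dotted line. The liver values of Slc10a1 and Slco1b2 lie close together above all tumour values, and Slco1a1 is high in liver 4 alone.

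RefSeq's promoter table for the GRCm38.p6 build matched 9 of the 10 genes, Abcc3 being the exception, with 11 windows for their annotated starts. The sequences of Slco1b2, Abcc2 and Slc51b are shown because these genes passed the test and held a searched motif before their outermost annotated start. For Slc10a1, which also passed, the only match, AGGTCA, lay in the window of an inner start, 87 to 82 bases before it. Each runs 5′ to 3′ along its gene's strand and ends at the base before the outermost annotated start of the gene, within a window of 250 bases before the start the table uses. Capitals mark matches, on either strand, to AGGTCA, a hexamer bound by nuclear receptors, and to TGACNNNGC, the core of the antioxidant response element.
Slco1b2 (chr6:141629268-141629451, plus strand): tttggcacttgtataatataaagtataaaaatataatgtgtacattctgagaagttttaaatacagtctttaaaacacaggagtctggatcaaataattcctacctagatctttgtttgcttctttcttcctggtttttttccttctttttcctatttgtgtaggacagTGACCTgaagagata
Abcc2 (chr19:43782058-43782307, plus strand): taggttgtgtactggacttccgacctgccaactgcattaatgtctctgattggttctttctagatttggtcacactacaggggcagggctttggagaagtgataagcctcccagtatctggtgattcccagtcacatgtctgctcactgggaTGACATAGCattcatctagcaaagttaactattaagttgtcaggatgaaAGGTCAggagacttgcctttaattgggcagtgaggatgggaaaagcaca
Slc51b (chr9:65422774-65423023, minus strand): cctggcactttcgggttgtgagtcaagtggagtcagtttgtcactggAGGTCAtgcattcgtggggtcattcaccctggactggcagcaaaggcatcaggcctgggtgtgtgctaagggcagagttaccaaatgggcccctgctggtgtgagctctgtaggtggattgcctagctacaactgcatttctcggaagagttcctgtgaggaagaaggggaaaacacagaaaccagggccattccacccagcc

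AGGTCA was found in 7 of the 11 windows of 250 bases before the transporters' starts, and in 14.0% of all 32851 such windows in the table. The match lay 81 to 76 bases before the start used for Slco1b2, 49 to 44 bases before that of Abcc2 and 203 to 198 bases before that of Slc51b. TGACNNNGC was in 3 of the 11 windows, 1 of Abcc2 and 2 of Abcc4, against 10.2% of all windows. Both Abcc4 windows belong to inner starts of the gene. GTTAAT, a hexamer of HNF1 sites, was in 1 of the 11, that of Slco1b2 at 66 to 61 bases before the start used, against 6.43% of all windows. This GTTAAT match does not lie before the outermost annotated start of Slco1b2. The inverted repeat AGGTCANTGACCT, the consensus element of FXR, was in 0 of the 11 and in 2 of all windows. No match of these motifs overlapped another in the transporters' windows. The matches are descriptions of letters, and binding was not measured.

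Among the uptake genes, Slco1b2, which encodes the liver-specific carrier OATP1B2 for bilirubin, unconjugated bile acids and many drugs, fell most. On probe set 1452494_s_at its values were 6.14, 11.05, 6.65, 10.69 and 8.32 in tumours 1 to 5, against 13.57, 13.47, 13.37 and 13.49 in livers 1 to 4. Every tumour lay below every liver, and the tumours themselves spread over 4.92 log2 units, against 0.20 among the livers. It averaged 8.57 ± 2.26 in tumours, against 13.47 ± 0.08 in livers (SD, n = 5 and n = 4), giving a log2 difference of -4.90 (SE 1.00, adjusted p = 0.00562) or 29.9-fold lower in the tumours. Tumour by tumour, the value was 162-fold below the liver mean in tumour 1, 113-fold in tumour 3 and 35.5-fold in tumour 5, but 6.85-fold in tumour 4 and 5.36-fold in tumour 2. The SD of Slco1b2 among tumours exceeded that of 99.7% of genes, while its SD among livers exceeded that of 13.2%.

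The other 4 probe sets of Slco1b2 were also lower in tumours. Probe sets 1449394_at and 1427826_a_at, also bright in liver, differed by -4.84 (SE 1.00) and -5.12 (SE 0.94), with the tumours in the same order, 1, 3, 5, 4 and 2 from lowest to highest. The dim probe set 1427825_at averaged 4.97 ± 0.10 in tumours and 5.64 ± 0.20 in livers, a difference of -0.67 (SE 0.10). The dim 1452569_at averaged 4.75 ± 0.06 in tumours and 5.59 ± 0.36 in livers, a difference of -0.84 (SE 0.15). All 4 passed over all probe sets, where 27.9% did, with adjusted p from 0.00157 to 0.00683. The main probe set carries the suffix s_at, which marks probes that can read similar transcripts, and the bright probe set 1449394_at does not.

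**Figure D2:**
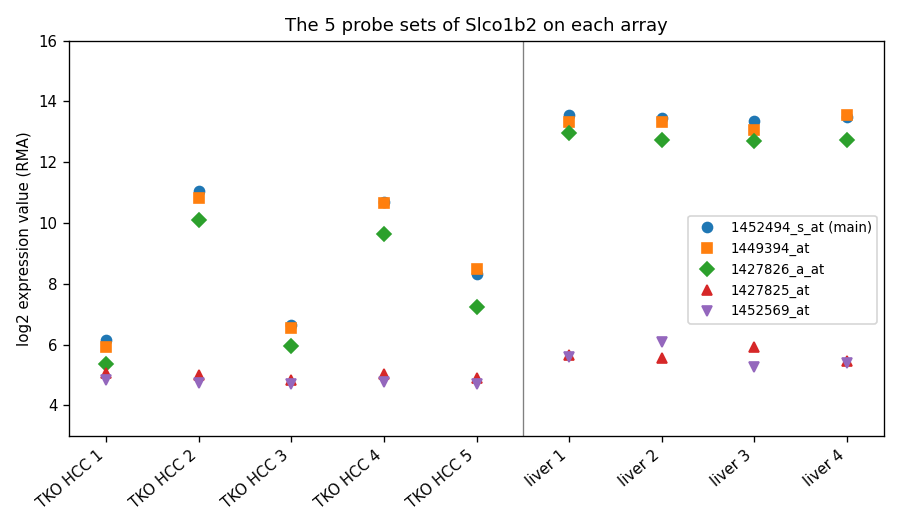
Log2 expression value (y axis) of the 5 probe sets of Slco1b2 on each of the 9 arrays (x axis), tumours left of the line and livers right of it. On the 3 bright probe sets tumours 2 and 4 stand highest among the tumours, tumours 1 and 3 lowest and tumour 5 between them, and all lie below the livers.

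Slc10a1 encodes NTCP, the main carrier of conjugated bile acids from blood. On probe set 1424898_at its values were 11.91, 12.92, 10.63, 12.77 and 12.34 in tumours 1 to 5, against 13.77, 13.74, 13.70 and 13.60 in livers 1 to 4. No tumour reached the lowest liver, and tumour 3 stood furthest below. It averaged 12.11 ± 0.92 in tumours, against 13.70 ± 0.07 in livers (SD, n = 5 and n = 4), giving a log2 difference of -1.59 (SE 0.41, adjusted p = 0.0166) or 3.01-fold lower in the tumours. The second probe set, 1450261_a_at, gave the same size, -1.59 (SE 0.38), with averages of 11.92 ± 0.85 in tumours against 13.51 ± 0.07 in livers (SD, n = 5 and n = 4).

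Slco1a1, the gene of OATP1A1, behaved unlike the other uptake genes because 1 liver decided its group mean. In mice this carrier is known for far higher liver expression in males than in females. On probe set 1420379_at its values were 6.99, 6.82, 6.61, 7.10 and 6.87 in tumours 1 to 5, against 7.52, 7.12, 6.86 and 13.51 in livers 1 to 4. Liver 4 alone was high, and the other 3 livers overlapped the tumours. The log2 difference was -1.87 (95% interval -4.63 to 0.89, adjusted p = 0.258), and without liver 4 it was -0.29 (adjusted p = 0.22). The second probe set, 1449844_at, showed the same split at a lower level, with 4.56 to 4.76 in tumours and 4.96, 4.73, 4.84 and 11.09 in livers 1 to 4.

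Liver 4 was also the liver of low Xist, a long RNA that coats and silences an X chromosome in cells of females. Xist was 6.34 and 6.39 in tumours 1 and 2 and 13.07 to 13.55 in tumours 3 to 5, against 6.66 in liver 4 and 12.68 to 12.81 in livers 1 to 3. Tumours 1 and 2, with low Xist like liver 4, had Slco1a1 at 6.99 and 6.82, at least 6.41 log2 units below liver 4, as all tumours were, and inside the range of the tumours with high Xist. The labels used here name no sex, and 1 liver of low Xist gives no spread for a test of this difference.

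**Figure D3:**
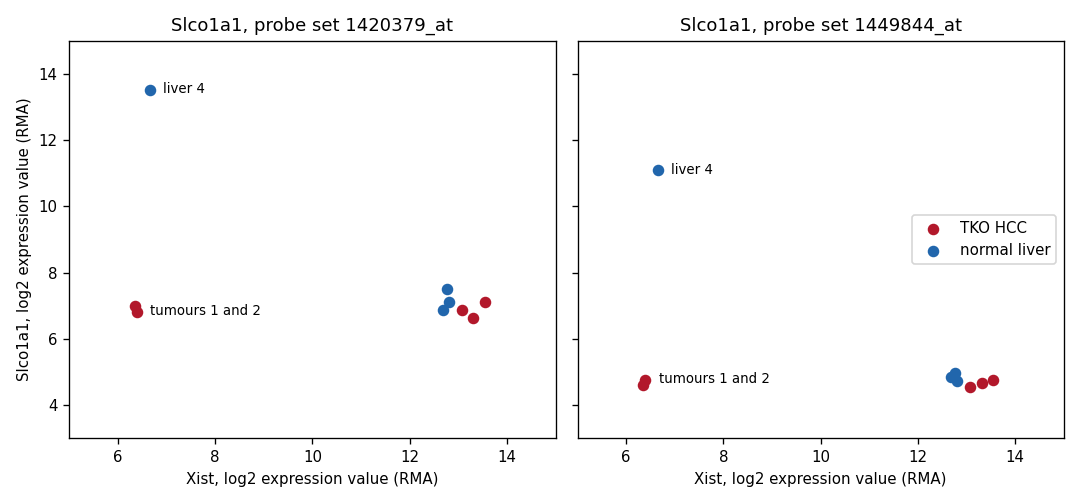
Log2 expression value of Slco1a1 (y axis) against that of Xist (x axis) on the 9 arrays, for each of the 2 Slco1a1 probe sets, with TKO HCC in red and normal liver in blue. Liver 4 combines low Xist with high Slco1a1, while tumours 1 and 2 combine low Xist with Slco1a1 values like those of the other tumours.

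Of the canalicular exporters, Abcc2 passed the test and the 2 others did not. Abcc2 encodes MRP2, the pump for conjugated bilirubin and glutathione conjugates. Its values were 8.89, 9.01, 9.35, 9.42 and 8.14 in tumours 1 to 5, against 10.39, 10.57, 10.06 and 10.57 in livers 1 to 4, and the groups did not overlap. It averaged 8.96 ± 0.51 in tumours, against 10.40 ± 0.24 in livers (SD, n = 5 and n = 4), giving a log2 difference of -1.43 (SE 0.25, adjusted p = 0.00261) or 2.70-fold lower in the tumours. Its only probe set, 1450109_s_at, is of the kind that can read similar transcripts.

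Abcb11 encodes BSEP, the bile salt export pump. On probe set 1449817_at its values were 11.38, 12.12, 8.69, 11.45 and 11.67 in tumours 1 to 5, against 12.24, 12.21, 11.94 and 11.67 in livers 1 to 4. Tumour 3 stood apart, 2.69 log2 units below the next tumour, while tumour 2 lay within the range of the livers. The log2 difference was -0.96 (95% interval -2.34 to 0.42, adjusted p = 0.249), and -0.36 without tumour 3 (adjusted p = 0.187). An unchanged level and a fall of over 2 log2 units both lie inside the interval over all 9 arrays.

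Abcb4 encodes MDR2, which moves phosphatidylcholine into bile. On probe set 1449818_at its values were 11.69, 10.16, 10.60, 11.97 and 10.71 in tumours 1 to 5, against 11.97, 11.41, 11.49 and 11.63 in livers 1 to 4. Tumours 2, 3 and 5 lay below all livers, and tumours 1 and 4 among them. The log2 difference was -0.60 (95% interval -1.40 to 0.21, adjusted p = 0.218), and it passed on the mean level of housekeeping genes (-1.09, adjusted p = 0.0197).

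Of the basolateral exporters, Slc51b passed the test. It encodes OSTβ, the small subunit that the carrier subunit OSTα needs to reach the membrane. On probe set 1454854_at its values were 9.16, 7.35, 7.48, 8.73 and 8.99 in tumours 1 to 5, against 7.26, 6.42, 6.61 and 6.77 in livers 1 to 4. All tumours lay above all livers, though tumours 2 and 3 stood just over the highest liver. It averaged 8.34 ± 0.86 in tumours, against 6.77 ± 0.36 in livers (SD, n = 5 and n = 4), giving a log2 difference of 1.58 (SE 0.41, adjusted p = 0.0169) or 2.98-fold higher in the tumours.

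Its partner Slc51a, the gene of OSTα, read on probe set 1451481_s_at 5.82, 5.71, 5.59, 5.80 and 5.58 in tumours 1 to 5, against 6.01, 5.91, 5.96 and 5.84 in livers 1 to 4. The groups did not overlap, with the tumours lower, but the difference was small. The log2 difference of -0.23 (SE 0.08, 95% interval -0.41 to -0.05) did not pass after adjustment (adjusted p = 0.0542). All 9 values were dim, the highest TrpnX reading being 4.36, and RMA shrinks differences at low signal. Slc51a passed with arrays centred on their 75th percentile (-0.41, adjusted p = 0.00761) and did not with arrays centred on the median level of housekeeping genes (-0.13, adjusted p = 0.855); on their mean level it did (-0.72, adjusted p = 0.000575).

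Abcc3 and Abcc4 encode MRP3 and MRP4, pumps of the basolateral membrane for glucuronides and other conjugates. Abcc3 (1428988_at) was 10.12, 7.83, 11.06, 11.30 and 10.51 in tumours 1 to 5, against 11.29, 11.23, 10.97 and 11.09 in livers 1 to 4. Tumour 2 was far below every other array, and tumours 3 and 4 lay at the level of the livers. The log2 difference was -0.98 (95% interval -2.38 to 0.41, adjusted p = 0.241), and -0.40 without tumour 2 (adjusted p = 0.229). It passed on the mean level of housekeeping genes (-1.48, adjusted p = 0.042). Abcc4 (1443870_at) was 8.47, 6.86, 11.88, 8.02 and 8.69 in tumours 1 to 5, against 8.03, 8.09, 9.35 and 7.04 in livers 1 to 4. Tumour 3 stood highest by 2.53 log2 units over any other array, and tumour 2 was lowest of all 9. The log2 difference was 0.66 (95% interval -1.38 to 2.70, adjusted p = 0.595), and it turned to -0.12 without tumour 3.

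**Figure D4:**
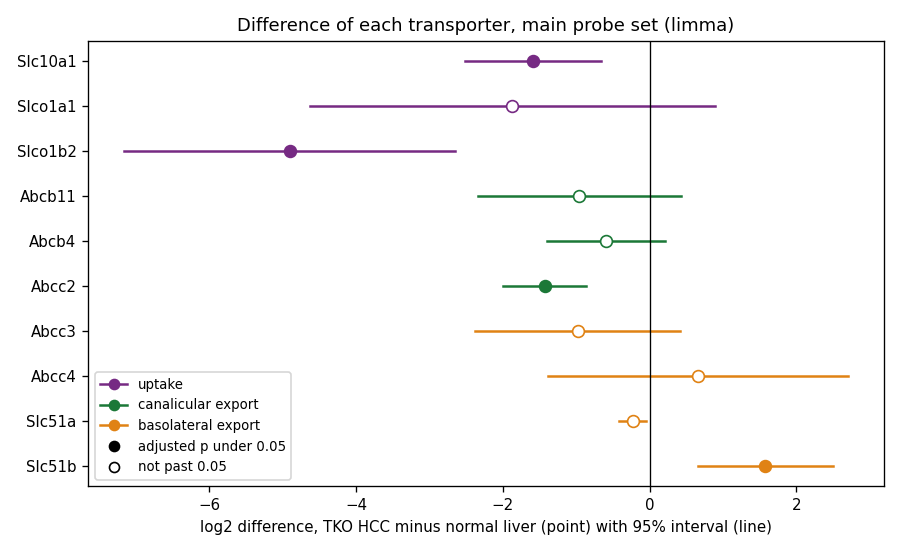
Log2 difference, TKO HCC minus normal liver (x axis, point), with its 95% interval (line) for the main probe set of each transporter, coloured by transport step, filled points passing an adjusted p of 0.05. Slc10a1, Slco1b2 and Abcc2 lie left of 0 and Slc51b right of it, and the intervals of the other genes except Slc51a include 0.

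The tumours differed from one another more than the livers did for 9 of the 10 genes, Slco1a1 being the exception through liver 4, and 58.0% of all genes also had the larger SD in tumours. Measured from the liver mean, tumour 3 had the lowest Slc10a1 (-3.07) and Abcb11 (-3.33) and the highest Abcc4 (3.75). Tumour 2 was nearest to liver in Slco1b2 (-2.42), Slc10a1 (-0.79) and Abcb11 (0.10), yet had the lowest Abcc3 (-3.32), Abcb4 (-1.47) and Abcc4 (-1.27). Slc51b was highest above liver in tumour 1 (2.39), tumour 5 (2.23) and tumour 4 (1.96), and lowest in tumour 2 (0.58) and tumour 3 (0.72). The median difference over the 10 genes was highest in tumour 4, at -0.35, and lowest in tumour 2, at -1.33. This median keeps signs, so falls and rises offset each other and it does not measure distance from liver. Tumour 3, for example, ran from -6.83 (Slco1b2) to 3.75 (Abcc4). The number of the 10 genes below all 4 livers was 6, 8, 7, 5 and 7 in tumours 1 to 5, where 37.7%, 38.4%, 39.9%, 36.7% and 40.5% of all genes lay below all 4 livers.

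By transport step, the median difference from the liver mean ran in the order uptake, canalicular, basolateral, lowest to highest, in each of the 5 tumours. In tumour 1 these medians were -1.79, -0.64 and 0.12, and in tumour 3 they were -3.07, -1.04 and 0.32. The order rested partly on liver 4 through Slco1a1: with the liver mean taken without it, tumour 2 had -0.82, -1.33 and -0.94 for the 3 steps, and the other 4 tumours kept the order.

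**Figure D5:**
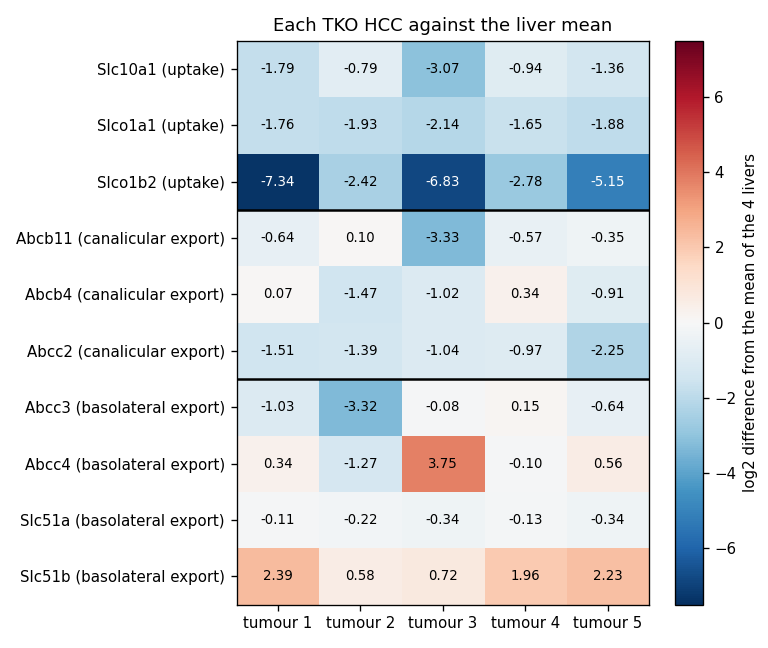
Log2 difference of each TKO HCC (columns) from the mean of the 4 normal livers for each transporter (rows, main probe set), grouped by transport step. Slco1b2 runs from -7.34 in tumour 1 to -2.42 in tumour 2, and the lowest Abcb11 and the highest Abcc4 are both in tumour 3.

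For the transporters that passed with a difference of at least 1, the genes of most similar profile were found over the 9 arrays by the root mean square difference of log2 values, each gene centred on its own mean. Nearest to Slco1b2 were Upp2, a uridine phosphorylase gene, at 0.47, and Rgn, the gene of regucalcin, at 0.58. Upp2 was 6.48, 9.88, 7.12, 10.26 and 7.69 in tumours 1 to 5, against 13.02 to 13.26 in livers. Tumours 2 and 4 were its highest tumours, which its choice by likeness to Slco1b2 on these arrays favours. Nearest to Slc10a1 were Pemt, which makes phosphatidylcholine from phosphatidylethanolamine, at 0.24, and the fatty acid elongase gene Elovl2 at 0.25. Nearest to Abcc2 were Reck and Dock4, both at 0.24, and nearest to Slc51b were Cacna1b at 0.31 and Otud1 at 0.39. These distances describe 9 arrays in 2 separate groups.

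Other carriers of organic ions, conjugates and membrane lipids were read from a list of 41 measured genes. Of these, 11 fell, 3 rose and 27 did not pass, with a median of -0.20, where 17.4% of all genes fell and 16.1% rose. Lower and higher calls numbered 19 and 2 on the 75th percentile, 9 and 2 on the median level of housekeeping genes and 30 and 2 on their mean level. Of all 18193 genes, 8040, 944 and 12272 were lower under these scalings. The 4 decreases of smallest adjusted p were Slc10a6, a carrier of sulfated steroids, at -0.68 (SE 0.09), Slc22a23 at -1.03 (SE 0.14), Slc22a30 at -3.37 (SE 0.50) and Tmem30a, a partner subunit of lipid flippases, at -1.25 (SE 0.19). Slc16a1, the monocarboxylate carrier MCT1, rose by 1.37 (SE 0.29) and Abcb1a, a drug efflux pump, by 1.82 (SE 0.51), while Abcc10 rose by 0.49 (SE 0.14). The call of Abcb1a was lost without tumour 1 (1.72), and that of Abcc10 in several settings, among them without tumour 1 (0.44) or liver 3 (0.41), while it turned to -0.01 on the mean level of housekeeping genes. The call of Slc10a6 was lost with arrays centred on the median level of housekeeping genes (-0.59).

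Among 40 measured regulators of these transporters, 9 fell and 7 rose, with a median of 0.14. The median turned to -0.04 on the 75th percentile, with 13 lower and 5 higher, and to -0.36 on the mean level of housekeeping genes, with 18 lower and 1 higher, and on their median level 5 were lower and 4 higher. Nr1h4, the bile acid receptor FXR, was 9.76, 11.01, 9.77, 10.75 and 9.98 in tumours 1 to 5, against 11.10, 10.59, 11.02 and 11.33 in livers 1 to 4, a difference of -0.76 (adjusted p = 0.0709). The groups overlapped through tumours 2 and 4, and the test was passed without tumour 2 (-0.95, adjusted p = 0.0178) or tumour 4 (-0.88, adjusted p = 0.0493), on the 75th percentile (-0.94, adjusted p = 0.0245) and on the mean level of housekeeping genes (-1.25, adjusted p = 0.00491). Nr0b2, the repressor SHP induced by FXR, differed by 0.75 (SE 0.62), Nr1i2, the xenobiotic receptor PXR, by 0.49 (SE 0.42) and Hnf4a, a regulator of hepatocyte identity, by 0.20 (SE 0.17), none of them past the threshold. On the mean level of housekeeping genes, Nr1i2 (-0.01) and Hnf4a (-0.29) turned sign.

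Nr1i3, the xenobiotic receptor CAR, fell by 3.15 (SE 0.44) on the log2 scale. It was 6.34, 7.36, 7.82, 7.87 and 9.05 in tumours 1 to 5, against 10.61 to 11.13 in livers. Ahr, the dioxin receptor, fell by 3.99 (SE 0.46), Esr1, the oestrogen receptor, by 2.95 (SE 0.24) and Hnf4g by 0.57 (SE 0.07), the last lost with arrays centred on the median level of housekeeping genes (-0.47). Nfe2l2, whose product NRF2 activates genes of antioxidant defence and conjugate export, rose by 1.08 (SE 0.25), with 11.84, 10.81, 11.95, 10.92 and 11.74 in tumours 1 to 5 and 10.16 to 10.51 in livers. Rxrb rose by 0.47 (SE 0.11) and Cebpb by 0.46 (SE 0.11), both calls being lost with arrays centred on the median level of housekeeping genes, where the differences were 0.57 (SE 0.21) and 0.56 (SE 0.22), and turning to -0.02 and -0.03 on their mean level. Cux2 rose by 0.47 with its main probe set, but its other 2 probe sets gave -2.98 and -0.73, so its direction was not settled.

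Placement in the membrane and cell polarity were covered by 27 measured genes, of which 11 rose and 3 fell, with a median of 0.29. The excess of rises depended on the scaling: 7 were higher and 6 lower on the 75th percentile (median 0.10), 7 and 2 on the median level of housekeeping genes, and 3 and 10 on their mean level (median -0.21). Cldn2, a tight junction claudin that forms paracellular pores for water and cations, fell by 4.41 (SE 0.27), Ceacam1, a canalicular membrane glycoprotein, by 1.74 (SE 0.28) and Pdzk1, a scaffold that binds several transporters, by 0.74 (SE 0.13). Pdzk1 did not pass with arrays centred on the median level of housekeeping genes (-0.65). Atp1b1, a subunit of the sodium pump, rose by 1.43 (SE 0.20), and the junction genes Cgn, Cldn1 and Cldn3 rose by 0.80, 1.31 and 0.77. Cgn (0.30) and Cldn3 (0.28) did not pass on the mean level of housekeeping genes.

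Genes listed for bile acid synthesis and conjugation, the cargo of these carriers, fell in 14 of 20 cases and rose in none, with a median of -1.29. Lower and higher calls numbered 15 and 0 on the 75th percentile, 9 and 1 on the median level of housekeeping genes and 17 and 0 on their mean level. The list also held Fah, an enzyme of tyrosine breakdown that does not make bile acids and is 1 of the 14 (-1.45). Those of smallest adjusted p were Cyp8b1 at -4.68 (SE 0.33), Hsd3b7 at -1.57 (SE 0.13) and Slc27a5 at -2.91 (SE 0.36).

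The tissue label was checked on hepatocyte markers, and tumours and livers both carried them. Alb averaged 15.50 ± 0.05 in tumours, against 15.42 ± 0.14 in livers (SD, n = 5 and n = 4). Apoa1 averaged 15.36 ± 0.02 in tumours, against 15.31 ± 0.07 in livers, and Serpina1c 15.16 ± 0.09 in tumours, against 15.17 ± 0.03 in livers, all near the top of the scale, where differences can be compressed. All 3 were lower in tumours and passed on the mean level of housekeeping genes (-0.41, -0.45 and -0.50). Of 18 measured hepatocyte markers, 6 fell and none rose. The 6 were Pck1 (-4.52, SE 1.05), G6pc (-2.71, SE 0.92), Tdo2 (-0.94), Asgr1 (-0.68), Apob (-0.61) and Apoc3 (-0.45). Lower calls among the 18 numbered 11 on the 75th percentile, 2 on the median level of housekeeping genes and 17 on their mean level. The log2 of the summed level of the 18 ran between 18.18 and 18.48 in tumours, below the 18.56 to 18.69 of livers. Of 13 bile duct markers, whose cells also carry Slc51a, Slc51b and Abcc3, 2 rose and 2 fell, with sums of 10.96 to 11.77 in tumours and 11.72 to 11.88 in livers. Cftr, a chloride channel of duct cells, did not exceed the highest TrpnX control value on any array. Among the brightest duct markers, Slc4a2 rose by 1.20 (SE 0.17), Aqp1, which endothelium also expresses, fell by 1.67 (SE 0.42), and Onecut1 differed by 0.40 (SE 0.48), or -0.09 on the mean level of housekeeping genes. Aqp1 was 10.94 in liver 2 and 11.09 to 11.11 in the other livers, so much of the liver sums came from Aqp1. The sums of the groups overlapped and do not measure the number of duct cells, which was not tested.

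Markers of other liver cells were lower or overlapped. Of 15 endothelial markers 5 fell and 1 rose, with log2 sums of 11.48 to 12.36 in tumours and 13.05 to 13.42 in livers. For 14 macrophage markers, 6 fell and none rose, with sums of 12.68 to 14.73 in tumours and 13.69 to 14.71 in livers. Stellate cell and fibroblast markers had 6 of 14 lower and 2 higher, with sums of 12.48 to 14.23 in tumours and 13.51 to 14.02 in livers. Lymphocyte markers had 2 of 13 lower and none higher, with sums of 10.32 to 12.20 in tumours and 10.77 to 12.21 in livers. No marker of these 4 lists stayed at or below the highest TrpnX value on all arrays. Lower calls for endothelial, macrophage, stellate, lymphocyte and bile duct markers, in that order, were 8, 7, 6, 4 and 3 on the 75th percentile. On the median level of housekeeping genes they were 5, 6, 5, 0 and 1. On their mean level they were 10, 8, 8, 9 and 8, where 12272 of all 18193 genes were also lower. Higher calls, in the same order, were 1, 0, 2, 0 and 2 on the 75th percentile. On the median level of housekeeping genes they were 1, 0, 3, 0 and 2. On their mean level they were 0, 0, 2, 0 and 2. The part of these cells in the transporter differences was not tested.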

How the data were processed

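The authors deposited log2 values, 1 for each probe set and array. RMA is named for them, per the submitters' processing notes, with no version or settings. Its usual steps are background correction, quantile normalisation and probe summary, and it shrinks differences near background. The table holds 45101 probe sets on 9 arrays, from 3.13 to 15.5. The number of arrays limits the precision. Samples were grouped by title.

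Gene names came from the platform annotation: 34945 probe sets had a single symbol, 932 had more and 9160 had no symbol, beside 64 controls. Symbols were checked by gene identifier in RefSeq's GRCm38.p6 table, where 34741 were found and 0 changed. Main probe sets of 18193 genes entered limma 3.58.1 in R 4.3.3 (lmFit, then eBayes), with group as the only term and two-sided p-values, to which Benjamini-Hochberg adjustment over all genes was applied. An adjusted p refers to this test unless a named alternative or another probe set goes with it. Other probe sets were fitted and adjusted over all 45037 probe sets that are not controls. The test was also run on simulated data in which each gene had the same SD in tumours and livers. It recovered 32.8% of planted differences of 0.5 log2 units, 68.7% of those of 1 and 92.4% of those of 2. Only 67, 67 and 66 genes carried a planted difference of these sizes, while 6091 genes passed in the data. The adjustment was therefore stricter in the simulation, and these rates are not those of the test on the data. Unequal spread, as seen for Slco1b2, was not simulated.

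The transporters, lists and tests were chosen with earlier results of these data known. All probe sets of the transporters are given. From the other transporter, regulator and placement lists up to 4 genes of smallest adjusted p in each direction are named, with Nr1h4, Nr0b2, Nr1i2, Nr1i3 and Hnf4a. From bile acid synthesis 3 genes, from hepatocyte and duct markers the 3 brightest, and for each transporter past the threshold by at least 1 log2 unit the 2 most similar profiles are named. Hepatocyte markers that passed the test are named as well. Alternatives covered the model, dim probe sets, the choice of probe set, scaling, each array left out, the replicate number, Xist and RNA length. Python 3.11.15, numpy 2.4.6, pandas 2.3.3 and matplotlib 3.10.9 were used for other values and plots.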

Additional observations from a re-analysis of the deposited data

Results flagged for a closer look

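Within groups of 4 or 5 arrays, 11 values stood further from the rest of their group than Dixon's test allows at the 95% level, among 118 groups of values examined, and chance alone gives about 5%. Slco1a1 in liver 4 was high with both probe sets, 13.51 against 6.86 to 7.52 in the other livers with 1420379_at, and 11.09 against 4.73 to 4.96 with 1449844_at. Abcb11 in tumour 3 was low, 8.685 against 11.38 to 12.12 in the other tumours. Probe set 1427826_a_at of Slco1b2 read 12.95 in liver 1 against 12.71 to 12.74 in the other livers, a gap of small size in a tight group.

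The remaining values belong to genes outside the transporter set. Liver 2 differed from the other livers in Slc16a1 (10.77), Atp1b1 (9.955), Hsd3b7 (13.25), Aqp1 (10.94) and Cacna1b (6.215). Alb was 15.21 in liver 4, against 15.48 to 15.49 in livers 1 to 3. Onecut1 was 9.779 in tumour 2, against 7.47 to 7.86 in the other tumours.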

How the results depend on the processing

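Each of the 10 transporters was recomputed under 21 alternatives, and 196 of the 210 values kept their direction and their side of the threshold. Part of this count was fixed in advance. Alternatives for the variance and the filter on dim probe sets left each difference as it was. So did the choice of probe set for genes with a single one. With any 1 array left out, 3 lower and 1 higher transporter calls were made each time, while the calls over all genes ranged from 4632 to 6361, against 6091. The ranges without 1 array were -1.79 to -1.22 for Slc10a1, -5.52 to -4.29 for Slco1b2, -1.55 to -1.23 for Abcc2 and 1.37 to 1.83 for Slc51b, with the highest adjusted p at 0.0491. Slc51a also passed with an intensity trend (adjusted p = 0.0426) and with the mean of probe sets (adjusted p = 0.0415). With the mean of its 5 probe sets, 2 of them dim, Slco1b2 differed by -3.27.

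Of all calls, 48.0% were higher as deposited, with 10346 calls and 22.3% higher on the 75th percentile, and 3215 calls and 70.6% higher on the median level of housekeeping genes. On the mean level of housekeeping genes, 13601 genes passed, 9.77% of them higher, and 7 transporters passed, 6 lower and 1 higher, Abcb4 (-1.09), Abcc3 (-1.48) and Slc51a (-0.72) being added. That scaling and the liver mean without liver 4 in the tumour-by-tumour medians were chosen after seeing the data.

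With the Actb ratio as a covariate, which lies apart in the groups, 0 transporters passed (0 lower, 0 higher, and 1 at an unadjusted p under 0.05) and 190 genes passed. In that fit Slco1b2 was at -0.19 (SE 2.93), Abcc2 at -2.32 (SE 0.79) and Slc51b at 2.76 (SE 1.32), and Slc10a1 (0.61, SE 1.14), Abcb11 (2.19, SE 1.74) and Abcc4 (-3.18, SE 2.74) turned sign. The uptake median was -0.19 and the basolateral median -0.55 there. Abcc4 also turned without tumour 3 (-0.12). With the replicate block, on the 8 arrays numbered 1 to 4, 3552 genes passed, and Slc10a1 was at -1.65 with an adjusted p of 0.0507. The numbers are not known to pair samples: deviations of same-numbered tumours and livers correlated at -0.13, -0.07, 0.18 and -0.12. Adding Xist as a covariate or leaving out the 3 arrays of low Xist kept all 4 calls, but without those arrays Slco1a1 was -0.30, Abcc3 -0.21 and Abcb11 -1.53.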

Other observations

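Liver 4, the liver of low Xist, also differed from the other livers in genes of bile acid handling outside the transporter set, picked out after their values were seen. Cyp7b1, an oxysterol hydroxylase of bile acid synthesis that is known to be higher in male than in female mouse liver, was 14.39 in liver 4 and 10.39 to 10.97 in livers 1 to 3. Slco1a4, the gene of OATP1A4, known to be higher in female mouse liver, was 10.22 in liver 4 and 11.91 to 12.10 in livers 1 to 3. Cyp39a1, another oxysterol hydroxylase gene, was 5.90 in liver 4 and 9.97 to 10.75 in livers 1 to 3. Slc22a27 was 4.78 in liver 4 and 9.54 to 10.48 in livers 1 to 3.

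In tumours 1 and 2, which shared low Xist with liver 4, some of these genes lay far from liver 4 and some near it. Cyp7b1 was 9.11 and 9.88 in tumours 1 and 2, against 9.18 to 11.71 in tumours 3 to 5. Cyp39a1 was 11.74 and 12.41, against 10.96 to 12.08 in tumours 3 to 5, all above every liver. Slco1a4 was 8.12 and 9.96, the second near liver 4, against 7.39 to 11.68 in tumours 3 to 5. Slc22a27 was 6.31 and 4.90, the second again near liver 4, against 4.33 to 7.04 in tumours 3 to 5. Abcg5, a subunit of the canalicular sterol exporter, spread widely among tumours, at 8.45, 7.84, 9.43, 12.77 and 10.50 in tumours 1 to 5, against 11.18 to 11.51 in livers.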
